A study of Homo sapiens with 18 samples.

Results

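The regions described here are the broad RNA polymerase II (RNAPII) peaks of MCF10A-ErSrc cells that were still listed after every treatment. They were selected on their width: a peak of the NT list of at least 3000 bp, counted as end minus start, that overlapped a peak by at least 1 bp in each of the other 3 lists. Of 11222 peaks in the NT list, 376 were that broad, and 302 of those 376 were kept in all lists. The remaining 74 broad peaks lacked an overlapping peak in at least 1 list. MCF10A-ErSrc is a non-tumorigenic human mammary epithelial line that carries a v-Src kinase fused to a ligand-binding domain of the oestrogen receptor, so that tamoxifen switches the kinase on and transforms the cells. All cells of the study carry this fusion, which makes the untreated group a control for tamoxifen and not for the transgene, and all come from a single line. Cells were left without tamoxifen (NT) or given it (TAM), and each kind was then kept for 4 h in DMSO or in triptolide (TPL-125nM in the labels), a plant-derived inhibitor of transcription, giving the groups NT, NT + TPL, TAM and TAM + TPL. RNAPII ChIP-Seq gave 1 peak list for each group, and RNA-Seq of poly-A RNA gave 2 libraries for each group, 8 in all.

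RNAPII starts at a promoter, where the general factor TFIIH opens the DNA, and it usually pauses a short way into the gene before the kinase P-TEFb releases it. A ChIP-Seq peak of RNAPII is therefore narrow at most promoters and widens into the gene body where many polymerases are elongating, as at short and heavily transcribed genes. TPL binds the XPB subunit of TFIIH and blocks the opening of new promoters, whereas polymerases that have already left the promoter can run on to the end of the gene.

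Promoters of 8 genes at broad peaks are printed here because the results turn on them: GADD45B and HEXIM1 had RNA that rose with TPL, FOS, DUSP1 and KLF6 had RNA that fell, and EEF2, RPL13A and RPS16 belong to the translation machinery. The sequences were read from GRCh37 (the same build as hg19, to which the peaks were mapped) on the strand of the gene, from 100 bases before the canonical transcript start to the first 10 bases of the transcript. Capitals mark the TATA box letters TATAAA starting and ending 45 to 15 bases before the start, or the first match of the letters CTTT within 5 bases before and 10 bases after it, as found in the pyrimidine-rich starts of ribosomal protein genes. The promoter of KLF6 holds neither in these windows.
GADD45B, chr19:2476025-2476134, plus strand: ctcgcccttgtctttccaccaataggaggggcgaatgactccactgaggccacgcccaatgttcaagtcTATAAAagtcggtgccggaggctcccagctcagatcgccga
HEXIM1, chr17:43225742-43225851, plus strand: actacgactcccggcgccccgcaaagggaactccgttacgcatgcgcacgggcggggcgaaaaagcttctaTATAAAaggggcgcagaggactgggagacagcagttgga
FOS, chr14:75745431-75745540, plus strand: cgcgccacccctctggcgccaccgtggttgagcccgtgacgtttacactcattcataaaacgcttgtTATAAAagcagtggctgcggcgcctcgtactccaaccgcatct
DUSP1, chr5:172198189-172198298, minus strand: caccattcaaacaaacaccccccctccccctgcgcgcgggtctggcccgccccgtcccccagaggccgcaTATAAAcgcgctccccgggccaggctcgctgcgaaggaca
EEF2, chr19:3985452-3985561, minus strand: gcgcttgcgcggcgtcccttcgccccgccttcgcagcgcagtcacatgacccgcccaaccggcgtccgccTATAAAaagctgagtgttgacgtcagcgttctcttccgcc
RPL13A, chr19:49990765-49990874, plus strand: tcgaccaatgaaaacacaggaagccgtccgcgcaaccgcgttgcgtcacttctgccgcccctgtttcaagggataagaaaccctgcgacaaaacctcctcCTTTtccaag
RPS16, chr19:39926580-39926689, minus strand: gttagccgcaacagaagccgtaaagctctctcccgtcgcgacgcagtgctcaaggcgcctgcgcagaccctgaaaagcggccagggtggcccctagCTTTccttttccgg
KLF6, chr10:3827392-3827501, minus strand: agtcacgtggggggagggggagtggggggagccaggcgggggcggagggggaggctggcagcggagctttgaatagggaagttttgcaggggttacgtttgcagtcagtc

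The lists hold peaks at transcription start sites only and give positions without heights, so a width in another list is a lower bound wherever part of a signal was listed apart from a start site. Median widths over all peaks were 632 bp in the NT list, 406 bp in TAM, 553 bp in NT + TPL and 455.5 bp in TAM + TPL. The peak names carry a setting of 0.02 for NT, NT + TPL and TAM + TPL and of 0.1, written as a q value, for TAM, and 41.5% of the TAM names end in a letter against 0 names in the other lists. Over the broad peaks, 363 of 432 overlapping TAM peaks had such a name. A difference in width between the TAM list and the others and the setting behind the TAM list cannot be told apart. The RNA-Seq libraries held between 7461309 and 8349448 expected counts. Among basal epithelial markers, KRT5 had means of 6013 FPKM in NT and 1308 FPKM in TAM cells, and of 4153 and 454.6 FPKM in the same cells with TPL. In the same order, KRT17 had 6714, 1481, 5376 and 786.7 FPKM, and TP63 had 18.4, 23.6, 0.46 and 0.735 FPKM. KRT14, ITGA6 and CDH3 were also lower in TAM than in NT cells, whereas LAMB3 was higher (442 against 276 FPKM). These markers moved between the groups, and not all in one direction. Luminal markers were listed too, with 276 FPKM for KRT8 and 410 FPKM for KRT18 in NT cells. There GATA3, FOXA1, KRT19 and PGR had 6.3, 3.44, 0.085 and 0 FPKM. The oestrogen receptor gene ESR1 had 224 FPKM in NT cells. All cells carry the fusion with an oestrogen receptor domain, so this value cannot be read as a luminal marker. Whether reads of the fusion were counted at ESR1 was not tested. Of the blood markers, HBB was listed at 0 in every group. In NT, TAM, NT + TPL and TAM + TPL, CD14 had means of 10.1, 7.18, 16.9 and 6.63 FPKM and PTPRC of 0.46, 0.435, 1.43 and 1.71 FPKM. No marker of these lists lay at a broad peak, and their part in the results was not tested.

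At most of the broad peaks, the listed width was smaller with TPL than without it. Without heights, a narrower peak and a weaker one of the same shape cannot be told apart. In the NT list, which chose the peaks, widths ran from 3010 bp over a median of 5232.5 bp to 42801 bp. The same regions had a median summed width of 2842.5 bp in the TAM list (from 240 to 28029 bp), of 1583 bp in NT + TPL (from 169 to 25746 bp) and of 1390 bp in TAM + TPL (from 143 to 10920 bp). The median peak kept 57.9% of its bases in the TAM list, 30.9% in NT + TPL and 27.7% in TAM + TPL. A width of at least 3000 bp remained at 140 regions in TAM, at 83 in NT + TPL and at 62 in TAM + TPL, and at 43 regions in all lists. In contrast, 101 regions in NT + TPL and 103 in TAM + TPL were under 1000 bp, the width of an ordinary promoter peak, as were 34 in TAM. All 3 other lists were narrower than NT at 250 regions. Only 25 regions were wider in NT + TPL than in NT, and 12 in TAM + TPL. Within TAM cells, 241 regions were narrower with TPL than without it.

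**Figure D1:**
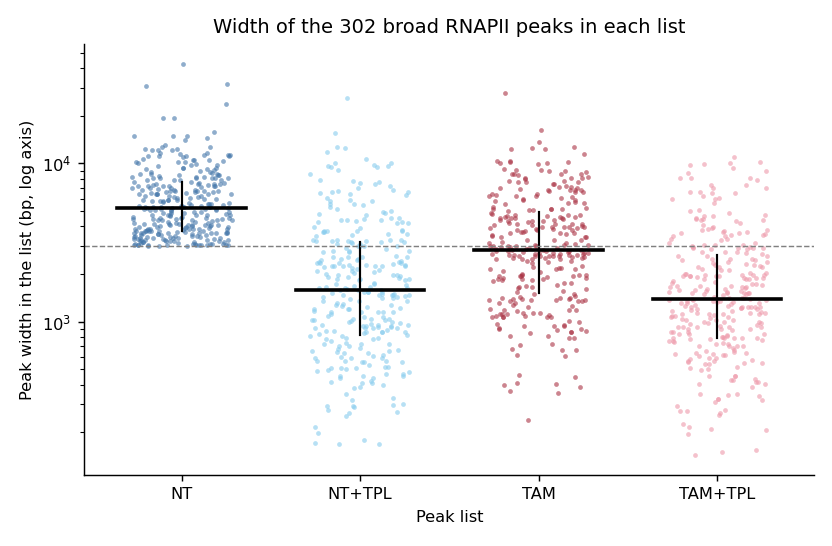
Width in bp (vertical log axis) of the 302 broad peaks in the NT, NT + TPL, TAM and TAM + TPL lists, each point 1 region, with the median as a thick line, the quartiles as a thin line and the 3000 bp limit dashed. The NT points lie above the limit because that list chose the regions, and the medians of the other lists lie at 1583, 2842.5 and 1390 bp.

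Part of this difference follows from the choice, because a list that sets a minimum width lies above the others by construction. The choice was therefore turned round once. Of 63 peaks of at least 3000 bp in the TAM + TPL list, 61 overlapped a peak in every other list, and 46 of them were also among the 302 regions. Their median was 4486 bp in the TAM + TPL list that chose them and 5285 bp in the NT list, with 35 wider and 26 narrower in NT. No test was made on any width, with 1 list for each group. Of the peaks next to the limit, those of PPP1R35 and DNAJA1 just outside it were 2986 and 2999 bp wide in NT, and those of C1orf122, GMEB2 and SLC38A1 just inside were 3010, 3017 and 3021 bp. With TPL in NT cells these 5 peaks measured 1508, 2385, 1840, 887 and 1025 bp in the same order.

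Most of the reach of the listed peaks, and of its difference between the lists, lay downstream of the start. A canonical start of an annotated gene lay in 285 of the 302 peaks, and the lead gene of a peak is the gene with the highest FPKM in NT cells among those starting in it. Downstream of the lead start, the median reach was 4266 bp in NT, 2271 bp in TAM, 1224 bp in NT + TPL and 1128 bp in TAM + TPL. Upstream it was 854, 549, 416 and 356 bp in the same order. Reach ran to the outermost edge of the overlapping peaks, so gaps between separate peaks count in it. At NCL in TAM + TPL, for example, 3 peaks with a summed width of 2468 bp reached 9427 bp downstream. The overlapping peaks had outer edges on both sides of the lead start at 258 of 285 regions in NT + TPL and at 260 in TAM + TPL. This says little, since the lists were limited to peaks at starts and separate peaks can flank a start. The downstream edge lay over 1000 bp into the gene at 269 regions in NT and at 156 in NT + TPL. The choice by NT width favoured a long reach in NT. Gene-body signal split from the start is listed at some regions, as at NCL, and can be missing at others. These lengths are therefore a description of the lists only.

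RNA of the genes at the broad peaks was not used to choose them and was tested. The 302 peaks held the starts of 458 genes (319 protein-coding and 139 long non-coding), of which 348 had an RNA-Seq entry and 336 passed the filter on low counts. Calls were made with edgeR's quasi-likelihood test over all 16948 entries that passed, and required both an adjusted p no higher than 0.001 and a change of 1.2 or more on the log2 scale. With TPL in NT cells, 3 of the 336 genes rose (0.893%, against 1.22% of all entries) and 36 fell (10.7%, against 2.71%). With TPL in TAM cells, 2 rose (0.595%, against 0.844%) and 38 fell (11.3%, against 2.04%). At this threshold falls were called at a higher share than among all entries in both kinds of cell, and rises at a share near the background. At an unadjusted p under 0.05 (edgeR), the members exceeded the background in both directions in NT cells. There 34.2% were higher against 23.7% of all entries, and 35.1% were lower against 24.1%. In TAM cells 53 of the 336 were higher (15.8%, against 21% of all entries) and 121 lower (36%, against 24%). Rises in TAM cells were thus under the background and falls above it. The counts of calls became 0 in both directions without any 1 of the NT, TAM or TAM + TPL libraries, as they did for all entries, and falls in NT cells became 21 and 4 without the first and the second NT + TPL library (6.21% and 1.19%, against 0.784% and 0.062% of all entries). For the 336 genes the log2 fold change had a median of 0.02 with TPL in NT cells and of -0.10 in TAM cells, beside 0.09 and 0.05 over all entries. The 348 genes with an RNA entry at broad peaks had a median of 73.3 FPKM in NT cells. Such genes at the kept peaks under 3000 bp had a median of 10.9 FPKM, and the part of this level in the share of calls was not tested. The difference between the TPL effects in TAM and NT cells was called for 0 genes in either direction (0% of all entries). Before adjustment, p lay under 0.05 for 19 genes with a higher and for 22 with a lower TPL effect in TAM cells (edgeR), which is 5.65% and 6.55% against 5.03% and 5.59% of all entries, and DESeq2 called 9 (2.75%, against 0.94%). FPKM are relative to the RNA of a library, so a loss of RNA shared by all genes does not show in them, and in such bulk samples fewer cells of a kind and less RNA per cell cannot be told apart.

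Few genes were called as risen at the threshold above (3 in NT and 2 in TAM cells), and the peaks of these few stayed broad with TPL. At an unadjusted p under 0.05 (edgeR), 115 of the 336 tested genes were higher and 118 lower with TPL in NT cells. GADD45B, a stress-induced regulator of MAP kinase signalling and DNA repair, had 17.2 and 25.5 FPKM in the NT libraries and 185 and 200.1 FPKM in the NT + TPL libraries. In TAM cells it had 21.5 and 22.1 FPKM without TPL and 150.4 and 158 FPKM with it. All TPL libraries lay far above all DMSO libraries, with log2 fold changes of 3.17 ± 0.21 (SE, n = 2 libraries a group, edgeR adjusted p = 0.000246) in NT and 2.77 ± 0.21 (SE, n = 2 libraries a group, edgeR adjusted p = 0.000386) in TAM cells. Its peak measured 4053 bp in NT, 4083 bp in TAM, 4840 bp in NT + TPL and 4387 bp in TAM + TPL, so it was slightly wider with TPL in both kinds of cell.

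HEXIM1, which holds P-TEFb in its inactive complex, had 21.4 and 20.02 FPKM in NT, 76.8 and 78.4 FPKM in NT + TPL, 20.04 and 19.2 FPKM in TAM and 79.0 and 78.4 FPKM in TAM + TPL. On the log2 scale its RNA rose by 1.90 ± 0.12 with TPL in NT cells (SE, n = 2 libraries a group, edgeR adjusted p = 0.000239) and by 1.96 ± 0.12 in TAM cells (SE, n = 2 libraries a group, edgeR adjusted p = 0.000305). In both kinds of cell, the replicates were closer to each other than the TPL and DMSO groups were. The peak was 3175 bp wide in NT, 936 bp in TAM, 4419 bp in NT + TPL and 4882 bp in TAM + TPL, the last 2 being wider than the list that chose it. IER5, an immediate early gene with a single exon, had 19.6 and 20.9 FPKM in NT and 70.3 and 83.5 FPKM in NT + TPL, a rise of 1.92 ± 0.20 on the log2 scale (SE, n = 2 libraries a group, edgeR adjusted p = 0.000922). In TAM cells it had 32.8 and 36.1 FPKM without and 76.8 and 107 FPKM with TPL, which did not pass the threshold (edgeR adjusted p = 0.00315). The IER5 peak measured 5387 bp in NT, 7783 bp in TAM, 10670 bp in NT + TPL and 9370 bp in TAM + TPL, and it was among the 3 with the largest width relative to NT in each of the other lists.

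Immediate early genes are switched on within minutes of a growth or stress signal, and their short mRNAs are quickly degraded. Of 27 such genes on the list used here, 12 lay at broad peaks. In NT cells with TPL, 1 of the 12 rose (IER5) and 8 fell, beside 1.22% and 2.71% of all entries. In TAM cells 0 rose and 7 fell, beside 0.844% and 2.04% of all entries. With TPL their log2 fold changes had medians of -3.42 (NT cells) and -2.60 (TAM cells), beside 0.09 and 0.05 over all entries. FOS, an AP-1 subunit, had 503 and 576 FPKM in NT and 33.6 and 26.7 FPKM in NT + TPL, and 555 and 454 FPKM in TAM against 21.8 and 26.8 FPKM in TAM + TPL. Its RNA fell by 4.17 and by 4.42 on the log2 scale in NT and TAM cells (SE 0.20 each, n = 2 libraries a group, edgeR adjusted p = 0.000178 and 0.000234). KLF6, a zinc finger transcription factor, had 209.5 and 215 FPKM in NT, 11.3 and 11.7 FPKM in NT + TPL, 211 and 184 FPKM in TAM and 7.60 and 9.04 FPKM in TAM + TPL. The treated libraries of both genes lay more than 10-fold under the controls. MYC, the growth-promoting transcription factor, fell by 4.80 on the log2 scale in NT cells (SE 0.27, n = 2 libraries a group, edgeR adjusted p = 0.000195), from 532 and 623 FPKM to 26.8 and 15.04 FPKM. In TAM cells MYC had 154 and 148 FPKM without and 33.99 and 36.3 FPKM with TPL, which missed the threshold (edgeR adjusted p = 0.00123).

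The peaks of several of these genes were broader in TAM + TPL than in NT + TPL. The median immediate early peak kept 39.0% of its bases in NT + TPL and 75.1% in TAM + TPL, while over all 302 regions the TAM + TPL share was the lower. The MYC peak (chr8:128746406-128756005) measured 9600 bp in NT, 9107 bp in TAM, 553 bp in NT + TPL and 6047 bp in TAM + TPL. DUSP1, a phosphatase that inactivates MAP kinases, had a peak of 5580 bp in NT and 6993 bp in TAM, of 861 bp in NT + TPL and of 7040 bp in TAM + TPL. Its RNA nevertheless fell in both, from 534 and 574 FPKM to 40.0 and 32.1 FPKM in NT (log2 fold change -3.95 ± 0.25, SE, n = 2 libraries a group, edgeR adjusted p = 0.000221) and from 621 and 598 FPKM to 21.4 and 34.7 FPKM in TAM cells (-4.49 ± 0.25, SE, n = 2 libraries a group, edgeR adjusted p = 0.000252). ZFP36, which binds AU-rich elements and promotes mRNA decay, kept a peak of 2106 bp in NT + TPL and 3856 bp in TAM + TPL, out of 3726 bp in NT. Its RNA fell in both, from 975 and 959 FPKM to 78.4 and 43.8 FPKM in NT cells and from 1205 and 1011 FPKM to 101 and 92.1 FPKM in TAM cells. JUN, another AP-1 subunit, had peaks of 4076, 4036, 1635 and 3535 bp in NT, TAM, NT + TPL and TAM + TPL, and its RNA fell in both kinds of cell. ZFP36L1, of the ZFP36 family, had a shorter peak in both TPL lists (773 and 1377 bp, against 8141 bp in NT and 11473 bp in TAM), and its RNA fell in both.

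For EGR1, a zinc finger transcription factor, the list and the RNA went apart. Its peak was 5285 bp wide in NT, 657 bp in TAM, 6581 bp in NT + TPL and 6522 bp in TAM + TPL, covering the whole NT peak in both TPL lists. The RNA had 412 and 555 FPKM in NT, 201 and 84.0 FPKM in NT + TPL, 212 and 172 FPKM in TAM and 120 and 118 FPKM in TAM + TPL, and no comparison was called. CCN1, which encodes a secreted matrix-associated protein, had a peak of 4753 bp in NT, 993 bp in TAM, 5025 bp in NT + TPL and 1356 bp in TAM + TPL, and its RNA had 78.4 and 127 FPKM in NT, 78.7 and 64.2 FPKM in NT + TPL, 15.6 and 16.4 FPKM in TAM and 34.3 and 36.97 FPKM in TAM + TPL. For EGR1 the TPL libraries lay under the DMSO libraries of the same cells although the listed peak was wider, and for CCN1 both the peak and the RNA were lowest in TAM.

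**Figure D2:**
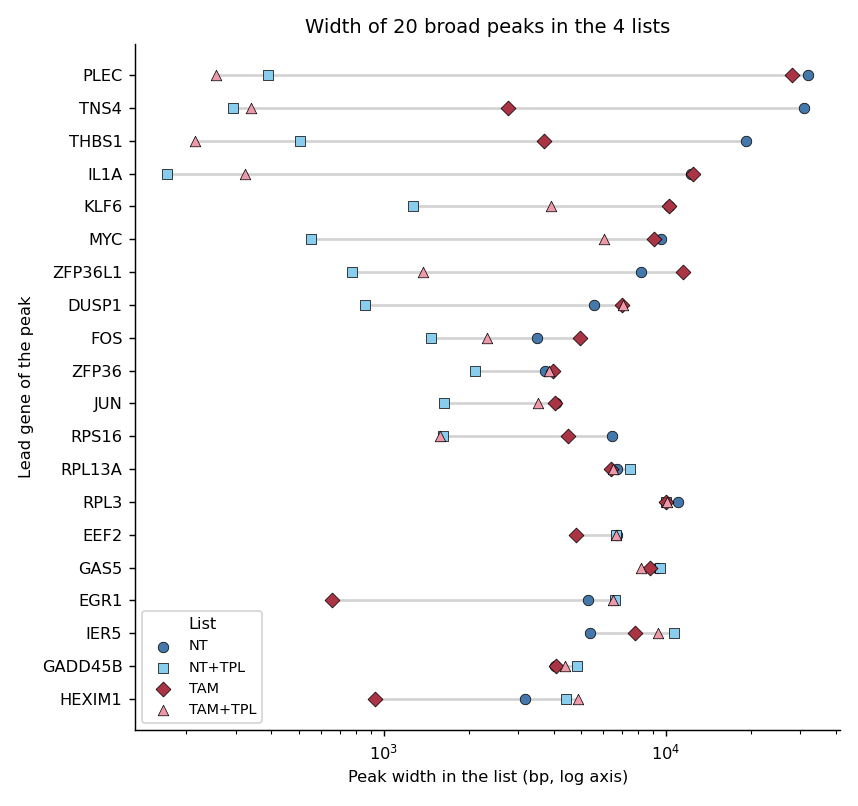
Width in bp (horizontal log axis) of 20 broad peaks, named by lead gene, in the NT (circles), NT + TPL (squares), TAM (diamonds) and TAM + TPL lists (triangles). The TPL symbols of PLEC, TNS4, THBS1 and IL1A lie under 1000 bp, those of GADD45B, HEXIM1, IER5 and EGR1 lie at or right of the NT symbol, and those of MYC and DUSP1 lie far apart from each other.

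ERK feedback genes, which damp the MAP kinase pathway, had 5 of 12 members at broad peaks, DUSP1 among them. In NT cells 3 fell and in TAM cells 4, beside 2.71% and 2.04% of all entries, and 0 rose. The peak of DUSP7, a phosphatase of ERK, shrank from 6799 bp in NT and 968 bp in TAM to 169 bp in NT + TPL and 149 bp in TAM + TPL. DUSP7 RNA fell from 101 and 106 FPKM to 14 and 7.10 FPKM in NT and from 94.5 and 90.5 FPKM to 9.09 and 5.80 FPKM in TAM cells. DUSP6, another ERK phosphatase, had 14.95 and 21.7 FPKM in NT, 6.39 and 4.61 FPKM in NT + TPL, 46.4 FPKM in both TAM libraries and 7.37 and 7.48 FPKM in TAM + TPL, and it fell in TAM cells (edgeR adjusted p = 0.000504) and missed the threshold in NT cells (edgeR adjusted p = 0.0017). The 2 genes of the NF-kB and cytokine list at broad peaks both fell in both kinds of cell. Over the whole list of 17 genes, 9 fell in NT and 8 in TAM cells, so these falls were not limited to broad peaks. The cytokine IL1A had a peak of 12235 bp in NT and 12434 bp in TAM, which measured 171 bp in NT + TPL and 324 bp in TAM + TPL, and its RNA fell from 67.3 and 74.3 FPKM to 10.3 and 6.32 FPKM in NT and from 71.1 and 79.5 FPKM to 13.1 and 12.1 FPKM in TAM cells. The peak of NFKBIA, the inhibitor of NF-kB, was 5934 bp wide in NT and 1588 and 2502 bp in the TPL lists. ID1 and TGIF1, regulators tied to TGF-beta family signalling, kept peaks of 3095 and 2145 bp in NT + TPL and of 2871 and 2269 bp in TAM + TPL. TGIF1 RNA fell in both kinds of cell, and ID1 RNA fell in TAM cells (log2 fold change -2.33 ± 0.24, SE, n = 2 libraries a group, edgeR adjusted p = 0.000926), where it went from 97.8 and 102.5 FPKM to 21.6 and 20.3 FPKM.

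The broadest peaks were mostly reduced to a stub with TPL. The widest of all, 42801 bp at chr22:46464593-46507393, holds the starts of 2 long non-coding RNA genes that had no RNA entry, ENSG00000289044 and LINC02939, and the microRNA gene MIR3619. It measured 12251 bp in TAM, 3248 bp in NT + TPL and 3573 bp in TAM + TPL. Next came PLEC, which encodes the cytoskeletal linker plectin (chr8:144983918-145015921), with 32004 bp in NT, 28029 bp in TAM, 388 bp in NT + TPL and 255 bp in TAM + TPL. PLEC RNA fell in NT cells, from 209 and 223 FPKM to 71.2 and 54.1 FPKM (log2 fold change -1.80 ± 0.17, SE, n = 2 libraries a group, edgeR adjusted p = 0.000623), and went from 212 and 168 to 72.6 and 73.2 FPKM in TAM cells. TNS4, a tensin of focal adhesions (chr17:38627323-38658113), had a peak of 30791 bp in NT and of 2751, 293 and 340 bp in TAM, NT + TPL and TAM + TPL. Its RNA had 673 and 789 FPKM in NT, 122 and 53.2 FPKM in NT + TPL, 390 and 325 FPKM in TAM and 65.0 and 48.7 FPKM in TAM + TPL, without passing the threshold (edgeR adjusted p = 0.00142 in NT and 0.00251 in TAM cells).

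A stub of a peak did not always go with a lower RNA. ENO1, a glycolytic enolase, had a peak of 23919 bp in NT, 10346 bp in TAM, 1543 bp in NT + TPL and 1637 bp in TAM + TPL, while its RNA had 726 and 659 FPKM in NT, 694 and 734 FPKM in NT + TPL, 773 and 767 FPKM in TAM and 685 and 741 FPKM in TAM + TPL. The NT and NT + TPL libraries overlapped, and the TAM + TPL libraries lay slightly under the TAM libraries. MATR3, a nuclear RNA-binding protein gene, had a peak of 14892 bp in NT and 263 bp in NT + TPL, with 44.2 and 51.6 FPKM in NT and 59.4 and 52.96 FPKM in NT + TPL. The matrix protein gene THBS1 had 19305 bp in NT, 3715 bp in TAM, 506 bp in NT + TPL and 215 bp in TAM + TPL, and its RNA fell in NT cells from 69.9 and 128 FPKM to 12.1 and 10.5 FPKM (edgeR adjusted p = 0.000714). In TAM cells THBS1 had 18.9 and 20.3 FPKM without and 9.66 and 7.16 FPKM with TPL. CCND1, encoding cyclin D1, had the smallest TAM width relative to NT among peaks with a named gene (8094 bp in NT, 409 bp in TAM, 290 bp in NT + TPL, 264 bp in TAM + TPL), and its RNA fell in NT cells (56.3 and 58.4 to 13.3 and 17.45 FPKM). Among the 10 broadest were also SLC20A1, a phosphate transporter gene (19464 bp in NT, 824 bp in NT + TPL and 835 bp in TAM + TPL), whose RNA fell in TAM cells from 77.0 and 71.0 FPKM to 11.7 and 14.1 FPKM, and TAF1D, which encodes a subunit of an RNA polymerase I factor (14870, 4711 and 3959 bp), at 44.5 and 47.7 FPKM in NT and 44.7 and 61.7 FPKM in NT + TPL. The long non-coding ENSG00000275888 (15804, 1486 and 652 bp) had no RNA entry.

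Cytoskeletal, metabolic and chaperone genes formed a further group of highly expressed members. Of the 5 actin cytoskeleton genes at broad peaks, 0 of 5 were called with TPL in either kind of cell. ACTB, which encodes beta-actin and was among the 5 genes with the highest FPKM, had 9202 and 8629 FPKM in NT, 3844 and 2895 FPKM in NT + TPL, 8504 and 9155 FPKM in TAM and 4955 and 4173 FPKM in TAM + TPL (edgeR adjusted p = 0.00105 and 0.0041). Its peak went from 8427 bp in NT and 8035 bp in TAM to 2329 bp in NT + TPL and 1699 bp in TAM + TPL. Of 6 glycolysis and hypoxia genes, 0 were called with TPL. GAPDH, the glycolytic dehydrogenase, had 2934 and 2443 FPKM in NT and 3708 and 3197 FPKM in NT + TPL, with a peak of 7355 bp in NT, 5578 bp in NT + TPL and 1877 bp in TAM + TPL. The adhesion and keratinocyte genes ITGA3, ITGB1 and SFN had peaks of 3037, 3680 and 3234 bp in NT and of 567, 1428 and 2789 bp in NT + TPL, and 0 of 3 were called with TPL. Of 4 heat shock genes, HSPA8, a constitutive HSP70 chaperone, fell in NT cells, from 1723 and 1689 FPKM to 453 and 520.3 FPKM (edgeR adjusted p = 0.000348), and its peak went from 10537 bp in NT to 1970 bp in NT + TPL. MT2A, a metallothionein gene, had 10608 and 7684 FPKM in NT, 9213 and 14768 FPKM in NT + TPL, 22306 and 23100 FPKM in TAM and 23052 and 24115 FPKM in TAM + TPL, with a peak of 4073 bp in NT, 506 bp in NT + TPL and 2747 bp in TAM + TPL.

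Genes for cytosolic ribosomal proteins were the largest group, with 52 of 84 at broad peaks. Their median peak was 6633 bp wide in NT, 2891.5 bp in TAM, 2051.5 bp in NT + TPL and 1613 bp in TAM + TPL, and the median of the share of bases kept by each peak was 35.6% in NT + TPL and 28.3% in TAM + TPL. None of the 52 was called with TPL (edgeR, 0 in either direction and either kind of cell). Their log2 fold changes had a median of 0.89 in NT cells, from 0.51 to 1.53, and of 0.49 in TAM cells, from -0.01 to 1.57. Over all 82 tested genes of the list the medians were 0.87 and 0.45, so the values were not particular to broad peaks. The median of the members with TPL stayed above 0 under every scaling tried. RPL13A had 1874 and 1514 FPKM in NT, 2771 and 3674 FPKM in NT + TPL, 2286 and 2469 FPKM in TAM and 3292 and 3186 FPKM in TAM + TPL. RPS21 had 194 and 179 FPKM in NT and 309.7 and 763 FPKM in NT + TPL. The NT + TPL libraries differed between each other by up to more than 2-fold at such genes, and without the second NT + TPL library the median in NT cells was 0.55, with the lowest gene at -0.10. The peaks within the group did not move alike: RPL13A kept a broad peak in every list (6719, 6400, 7438 and 6507 bp in NT, TAM, NT + TPL and TAM + TPL), whereas RPS6 went from 8246 bp in NT to 922 bp in NT + TPL and 1001 bp in TAM + TPL.

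Translation factor genes, of which 10 of 14 lay at broad peaks, had log2 fold changes with TPL from -0.94 to 0.95 in NT cells, on both sides of 0. The median member kept 46.4% of its bases in NT + TPL and 53.5% in TAM + TPL, and 0 of 10 were called. EEF2, the elongation factor that moves the ribosome along the mRNA, had a peak of 6694 bp in NT, 4817 bp in TAM, 6656 bp in NT + TPL and 6646 bp in TAM + TPL. EEF2 RNA had 1375 and 1451 FPKM in NT, 2447 and 2627 FPKM in NT + TPL, 1659 and 1398 FPKM in TAM and 2499 and 2802 FPKM in TAM + TPL, with all TPL libraries above all DMSO libraries (edgeR adjusted p = 0.00464 and 0.00796). At NCL, which encodes nucleolin, the peak of 14918 bp in NT measured 3493 bp in NT + TPL and 2468 bp in TAM + TPL.

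Genes that host small nucleolar RNAs (snoRNAs, guides for the modification of ribosomal RNA that are cut out of introns) were another large group. Of 15 snoRNA host and nuclear non-coding RNA genes, 13 lay at broad peaks, and 0 were called with TPL. The median of these peaks kept 74.6% of its bases in NT + TPL and 47.2% in TAM + TPL, with 6 of 13 at 75% or more in NT + TPL and 6 under 25%. GAS5 had a peak of 9301 bp in NT, 8820 bp in TAM, 9564 bp in NT + TPL and 8144 bp in TAM + TPL, and 199 and 168 FPKM in NT, 340.1 and 593 FPKM in NT + TPL, 468 and 555 FPKM in TAM and 752 and 879 FPKM in TAM + TPL. SNHG5 had a wider peak with TPL (7869 bp in NT, 4341 bp in TAM, 12555 bp in NT + TPL, 10231 bp in TAM + TPL), and 86.5 and 60.8 FPKM in NT against 149 and 295 FPKM in NT + TPL. SNHG16 and SNHG7, by contrast, kept 455 and 1831 bp of 5160 and 8671 bp in NT + TPL. An annotated snoRNA or small Cajal body RNA lay inside 50 of the 302 peaks (16.6%), a lower bound since the annotation was carried over from a later build. Their 61 tested genes had a median log2 fold change with TPL of 0.71 in NT and 0.40 in TAM cells, against -0.11 and -0.20 for the 275 genes at the other broad peaks.

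Replication-dependent histone genes, whose mRNAs mostly lack a poly-A tail, had 12 members at 6 broad peaks. All 6 peaks kept at least 75% of their bases in NT + TPL, with a median of 92.9%, and the median in TAM + TPL was 68.4%. None of the 11 tested histone genes was called (edgeR, 0 in either direction). The peak with H2BC5 and H1-4 measured 3126 bp in NT, 2944 bp in TAM, 3762 bp in NT + TPL and 2156 bp in TAM + TPL, and H2BC5 had 14.9 and 6.74 FPKM in NT, 51.7 and 47.1 FPKM in NT + TPL, 6.71 and 3.82 FPKM in TAM and 21.1 and 18.4 FPKM in TAM + TPL. H3C14 and H3C15, which share an RNA entry, had 0.13 and 0.17 FPKM in NT and 22.7 and 9.19 FPKM in NT + TPL (edgeR adjusted p = 0.00712). Histone gene copies share near-identical sequence and poly-A selection leaves out most of their RNA, so these values are uncertain.

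**Figure D3:**
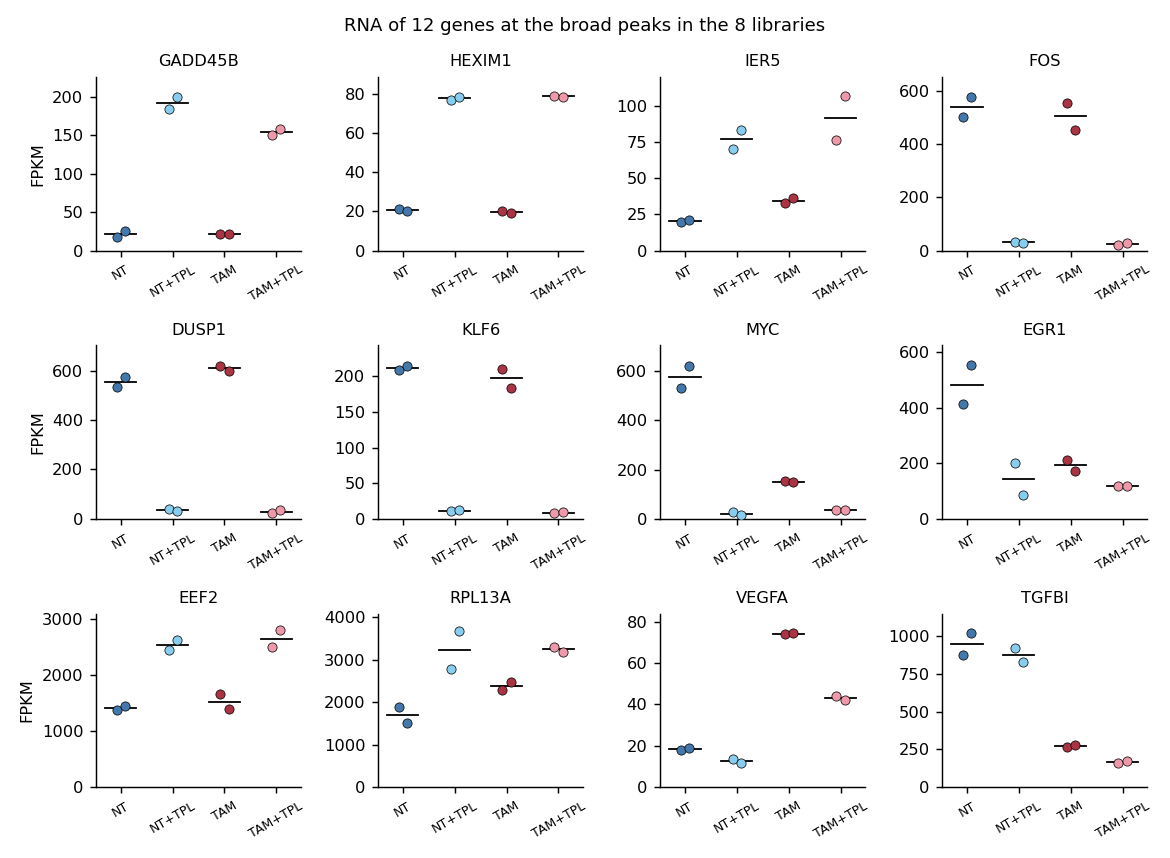
FPKM (vertical axes from 0) of 12 genes at broad peaks in the 8 RNA-Seq libraries, with 1 point for each library and a line at the mean of the 2 libraries of a group. GADD45B, HEXIM1 and IER5 lie higher and FOS, DUSP1, KLF6 and MYC lie lower with TPL, and VEGFA and TGFBI differ between NT and TAM cells.

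Across the broad peaks, the share of the NT peak still covered with TPL and the RNA change ran in parallel in part. Over all entries, 2.71% fell and 1.22% rose with TPL in NT cells, and 2.04% fell and 0.844% rose in TAM cells. In NT cells, the 44 peaks that kept under 10% of their bases held 44 tested genes, of which 16 fell and 0 rose, with a median log2 fold change of -1.47. The 50 peaks that kept at least 75% held 64 tested genes, of which 0 fell and 3 rose, with a median of 0.74. In between, 7, 10 and 3 genes fell and 0 rose at 10 to 25%, 25 to 50% and 50 to 75%, with medians of -0.10, 0.04 and 0.18. In TAM cells, 7 of 37 genes fell under 10% and 4 of 38 at 75% or more, where 2 rose, and the medians were -0.75 and 0.41. The 4 that fell there included DUSP1 and ZFP36, with 100% and 98.7% of the NT peak covered in TAM + TPL. Over the 273 lead genes tested, the covered share and the log2 fold change had a Spearman's rho of 0.36 for NT cells and of 0.21 for TAM cells (Pearson's r 0.38 and 0.17). The same measure over 5998 lead genes of the kept peaks under 3000 bp was 0.13 and 0.14. These are correlations across sites that share 1 list and the same libraries, given as a description without a test. Between the 2 TPL lists, the covered shares had a rho of 0.75 over the 273 peaks.

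**Figure D4:**
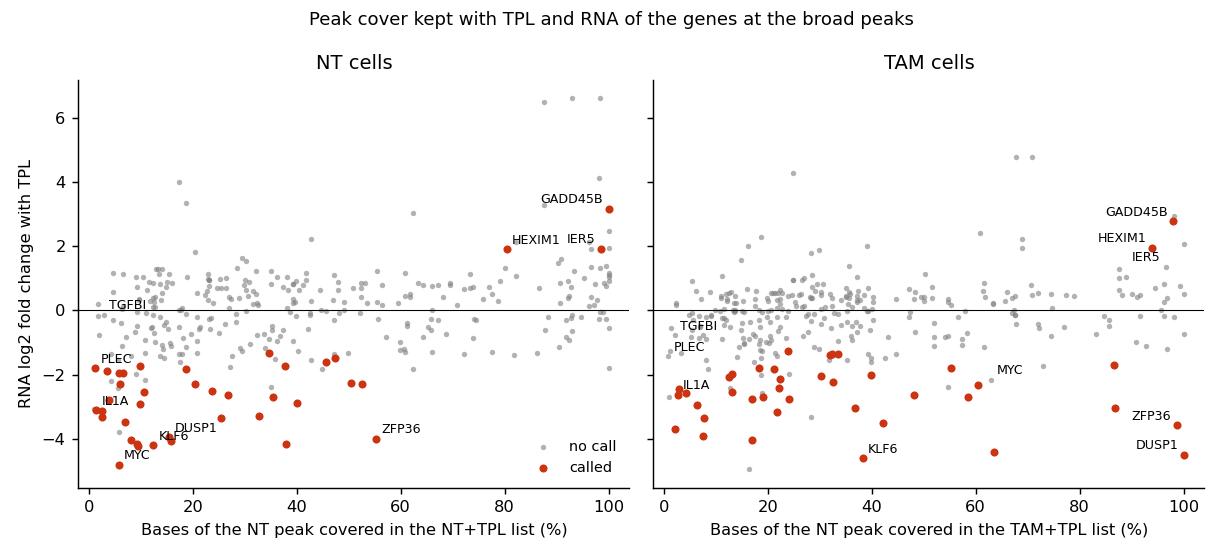
RNA log2 fold change with TPL (vertical axis) against the share of the NT peak covered in the TPL list (horizontal axis, %) for the tested genes at broad peaks in NT (left) and TAM cells (right), with called genes in red. Called falls sit mostly at a low cover in NT cells, with medians of -1.47 under 10% and 0.74 at 75% or more, whereas DUSP1 and ZFP36 are called falls at nearly full cover in TAM cells.

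Without TPL, 3 genes at broad peaks had more RNA in TAM than in NT cells (0.893%, against 0.378% of all entries) and 1 had less (0.298%, against 0.277%). TNFRSF6B, a decoy receptor for Fas ligand, had 45.3 and 33.3 FPKM in NT and 1313 and 1296 FPKM in TAM cells, a log2 fold change of 5.07 ± 0.37 (SE, n = 2 libraries a group, edgeR adjusted p = 0.000633). Its peak (chr20:62327034-62333993) measured 6960 bp in NT and 9140 bp in TAM, and 454 bp and 1874 bp in NT + TPL and TAM + TPL, while the RNA stayed high with TPL at 2799 and 2668 FPKM in TAM cells. CD68, a lysosomal membrane protein, had 47.2 and 47.1 FPKM in NT and 301 and 281 FPKM in TAM cells (log2 fold change 2.65 ± 0.14, SE, n = 2 libraries a group, edgeR adjusted p = 0.000174). Its start shares a peak with EIF4A1, which had 625 and 551 FPKM in NT and 549 and 523 FPKM in TAM cells, so the width of 8574 bp in NT and 7701 bp in TAM cannot be given to either gene. VEGFA, the vascular growth factor, had 17.9 and 19.1 FPKM in NT and 74.0 and 74.6 FPKM in TAM cells (log2 fold change 1.995 ± 0.13, SE, n = 2 libraries a group, edgeR adjusted p = 0.000439), with a peak of 4267 bp in NT and 5784 bp in TAM. TGFBI, a secreted matrix protein, was lower, with 877 and 1022 FPKM in NT and 268 and 278 FPKM in TAM cells (log2 fold change -1.78 ± 0.13, SE, n = 2 libraries a group, edgeR adjusted p = 0.000614), and its peak measured 14491 bp in NT and 2526 bp in TAM. With TPL in NT cells the TGFBI peak was down to 411 bp and the RNA still had 921 and 826 FPKM.

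With 2 libraries a group, the calls stood close to the threshold. All 41 named comparisons that were called kept their direction and an adjusted p of at most 0.05 when any 1 library was left out, but all 41 rose above 0.001 without either NT, either TAM or either TAM + TPL library. The adjusted p values of the 41 lay between 0.000167 and 0.000961. DESeq2 called all 41.

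Set beside the 6646 kept peaks under 3000 bp, the broad peaks were not only wider but changed more in width, as the choice by NT width would also bring about. The narrower peaks had median widths of 752, 512, 639 and 518 bp in NT, TAM, NT + TPL and TAM + TPL, and kept a median of 81.3% of their bases in NT + TPL and 71.1% in TAM + TPL. Around their lead starts, the median reach in NT was 332 bp upstream and 359 bp downstream, so these peaks were nearly symmetric. Lead genes were short at the broad peaks, with a median length of 8592 bp against 33200.5 bp, and 99 of 285 (34.7%) lay wholly inside the NT peak against 0.69%. An snoRNA lay in 16.6% of broad peaks against 0.166% of the narrower ones, or 51.5 against 2.05 for each Mb of peak. For microRNA genes the densities were 11.3 and 11.4 for each Mb. Of the 6731 tested genes at narrower peaks, 1.38% rose and 2.84% fell with TPL in NT cells, and 0.921% rose and 1.95% fell in TAM cells. At the 74 broad peaks that were not kept in all lists, 16 of 54 tested genes fell in NT cells (29.6%) and 14 fell in TAM cells (25.9%), and 0 rose.

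Promoter letters were counted in GRCh37 for the lead genes of 285 broad peaks. The letters TATAAA on the gene's strand, starting and ending 45 to 15 bases before the start as in GADD45B, HEXIM1, FOS, DUSP1 and EEF2, were found in 40 promoters (14.04%), against 1.37% of 6228 narrower kept peaks and 3.96% of 19819 protein-coding genes. Among broad peaks that kept at least 75% of their bases in NT + TPL, 15 of 48 had them (31.2%), 6 of them at histone genes, and without the histone genes 9 of 42 had them (21.4%), beside 13 of 120 (10.8%) at 25 to 75% and 12 of 117 (10.3%) under 25%. They were present at 2 of the 3 genes that rose in NT cells, GADD45B and HEXIM1, and at 7 of the 35 lead genes that fell, among them FOS and DUSP1, so they occurred at genes that moved either way. Immediate early genes had them at 6 of 12 promoters and ribosomal protein genes at 4 of 52. The letters CTTT on the gene's strand within 5 bases before and 10 bases after the start, as in RPL13A and RPS16, were found at 34 of 52 ribosomal protein genes (65.4%) and at 34 of the 233 other lead genes (14.6%), beside 6.25% of all protein-coding genes. In the window from 250 bases before to 50 bases after the start, GGGCGG on either strand was found at 75.1% of broad peaks, 76.6% of narrower kept peaks and 61.5% of all protein-coding genes, and CCAAT on either strand at 41.8, 37.1 and 35.98%. The AP-1 letters TGACTCA were found at 2.81, 2.10 and 3.57%, and the letters TGACGTCA at 6.32, 4.21 and 2.68%. TATAAA and the other motifs do not contain one another, and a match is a description of the letters and not a site of binding.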

How the data were processed

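RNAPII ChIP-Seq and poly-A RNA-Seq were made in 4 groups of MCF10A-ErSrc cells. The authors mapped the ChIP reads to hg19, called peaks over input with MACS (1.4.2 in their processing notes) and deposited peaks at transcription start sites as positions, 1 list a condition, named for the first of 2 replicates. Whether replicates were pooled is not given in the sources used here. The RNA files, as deposited, give expected counts per gene that the authors estimated with RSEM after mapping with Bowtie2, unnormalized. The FPKM values were computed by the authors from the same estimates. Genes without a read are left out and were taken as 0.

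Overlaps were counted at 1 bp or more, and the width in another list is the sum of its overlapping peaks. Genes were assigned by Ensembl canonical starts of GENCODE 44 lifted to GRCh37. Of 23604 RNA entries, 21077 matched a gene ID, 2407 a RefSeq accession and 120 neither. After rounding, 1 model over the 4 groups was fitted to the expected counts by edgeR 4.0.16 under R 4.3.3, with filterByExpr, TMM scaling, the quasi-likelihood test and Benjamini-Hochberg adjustment over 16948 entries. The script was tested on simulated data. Strand use in counting is not given in the sources used here, so overlapping and antisense genes are uncertain. p-values rest on a spread estimated in 1 fit from the replicates of all 4 groups, and not on the 2 replicates of a group alone. The SE was derived from the log2 fold change and the test statistic of the same fit.

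Named genes are those of the 10 broadest peaks, up to 3 called rises and falls for each contrast, the 5 highest in FPKM, the extremes of width ratio, the peaks next to the limit and the members of the gene lists. The regions, gene lists and tests were chosen with earlier results of these data known. Alternatives were DESeq2 1.42.0, other scalings, filters, thresholds, a replicate block, other width and overlap limits, and each library left out. A few items at the regions are not reported here.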

Additional observations from a re-analysis of the deposited data

How the results depend on the processing

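None of the 41 named comparisons changed direction in any alternative fit. Of the fits on all 8 libraries, 39 comparisons stayed past the threshold with library size only, 36 with upper quartile scaling and 33 with equal GAPDH. With the replicate block 1 stayed, and the other such fits kept all 41. For genes at broad peaks with TPL, the 3 that rose in NT cells became 23 under DESeq2, 6 where every library needed 10 counts, 10 with entries summed per gene, 28 at an adjusted p of 0.05 and 9 at a minimum width of 2000 bp. The 36 that fell in NT cells became 68, 56, 62, 71 and 62 in the same order, and 1 where 50% of the NT peak had to be covered. In TAM cells the 2 that rose became 9, 7, 9, 14 and 5 in the same order, and 1 each with equal GAPDH, at 4000 bp and at 50% cover. The 38 that fell became 65 with DESeq2, 61 summed, 66 at 0.05, 61 at 2000 bp, 25 with equal GAPDH and 4 at 50% cover. Between TAM and NT cells, the 3 higher became 9 with DESeq2, 5 where every library needed 10 counts, 5 summed, 9 at 0.05 and 1 at 50% cover, and the 1 lower became 10, 6, 8 and 12 in the same order, 2 with equal GAPDH, without a filter or at 2000 bp, and 0 at 50% cover. DESeq2 called 9 differences between the TPL effects against 0 with edgeR. When libraries were left out, 1 at a time, the lone library of its group was assumed to vary like the others. These counts then ran from 0 to 2 and from 0 to 21 for rises and falls in NT cells, from 0 to 2 and from 0 to 43 in TAM cells, from 0 to 3 higher and from 0 to 4 lower in TAM cells, and stayed at 0 for the difference between the TPL effects. Equal GAPDH moved the median log2 fold change of all entries between TAM and NT cells to -0.50 and that of the ribosomal protein genes from 0.39 to -0.08. Upper quartile scaling moved the median of all entries to 0.31 with TPL in NT cells. Falls were called at a higher share of the members than of all entries under 4 of these settings: in NT cells 19.9% against 8.36% (DESeq2), 17.9% against 7.98% (10 counts), 18.5% against 8.37% (summed) and 21.1% against 11.3% (0.05). Rises in NT cells were at 6.73% against 4.85%, 1.92% against 3.5%, 2.98% against 4.32% and 8.33% against 9.78% in the same order, so only DESeq2 put them above the background among these 4. In TAM cells, falls were at 19, 17.9, 18.2 and 19.6% against 7.37, 6.97, 7.3 and 10.1% of all entries in the same order. Rises there were at 2.63, 2.24, 2.68 and 4.17% against 4.51, 3.02, 3.94 and 9.05%. Without TPL, genes higher in TAM than in NT cells were at 2.66, 1.6, 1.49 and 2.68% against 2.16, 1.22, 1.46 and 2.53%. Lower genes were at 2.96, 1.92, 2.38 and 3.57% against 2, 1.36, 1.48 and 2.35%. The cause of these shifts was not tested.

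Samples with the same replicate number did not deviate together over all tested entries (correlations from -0.135 to 0.05). With 2 libraries a group this measure cannot exclude that such samples were paired. With the replicate block, 0 rises and 0 falls were called with TPL in either kind of cell, and 1 gene was higher and 0 were lower in TAM than in NT cells. The block leaves fewer residual degrees of freedom.

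The 302 regions became 589 at 2000 bp and 50 at 50% cover. The median width in the TAM list, 2842.5 bp, became 1712 bp at 2000 bp, 3972 bp at 4000 bp, 4463 bp at 50% cover, 2827 bp as covered bases and 2599 bp as the widest single peak. That in NT + TPL, 1583 bp, became 1409, 1939 and 4869 bp at the same limits and 1350 bp as the widest single peak. That in TAM + TPL, 1390 bp, became 1213, 1646 and 4123.5 bp, 1383 bp as covered bases and 1199.5 bp as the widest single peak. Without requiring the TAM list, an alternative chosen after seeing the data, the last 2 were 1578 and 1389 bp. Choosing by width in the TAM + TPL list gave 5285 bp in NT against 5232.5 bp for the choice by NT width. At 50% cover the choice itself keeps the peaks that stayed broad. Heights and read depths of the ChIP-Seq data were not analysed here, so a narrower listed peak and a weaker one of the same shape cannot be told apart.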

Other observations

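A few genes outside the lists above are named here after their values were seen, and they stand for no class. The transcription factor genes CEBPD (230.2 and 232 FPKM in NT against 16.3 and 11.4 FPKM in NT + TPL) and TFAP2A (121 and 124 FPKM against 22.1 and 19.2 FPKM) fell in both kinds of cell, with peaks that went from 4464 and 10205 bp in NT to 704 and 1092 bp in NT + TPL. The splicing factor genes SRSF2 and SRSF3 fell in both as well, with peaks of 7026 and 4141 bp in NT and 3201 and 2091 bp in NT + TPL. ANGPTL4, a secreted regulator of lipoprotein lipase, had a peak of 12313 bp in NT and 12664 bp in TAM but 484 and 931 bp in the TPL lists, and its RNA fell from 134 and 125.1 FPKM to 19.2 and 17.1 FPKM in NT and from 252 and 236 FPKM to 19.5 and 19.3 FPKM in TAM cells.

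At the genes of 2 heterogeneous nuclear ribonucleoproteins, the NT + TPL peak was wider than the NT peak while the RNA differed little. The peak of HNRNPA2B1 measured 11553 bp in NT, 4175 bp in TAM, 25746 bp in NT + TPL and 3337 bp in TAM + TPL, and its RNA had 58.4 and 57.6 FPKM in NT and 45.6 and 49.2 FPKM in NT + TPL. HNRNPH1 had a peak of 4414 bp in NT, 1354 bp in TAM, 11819 bp in NT + TPL and 3741 bp in TAM + TPL, with 204 and 205 FPKM in NT and 170.2 and 224 FPKM in NT + TPL. For the nuclear long non-coding RNA NEAT1 the deposited units disagreed: FPKM were 59.2 and 61.5 in NT and 83.4 and 90.8 in NT + TPL, while the log2 fold change fitted on expected counts was -0.85 (edgeR adjusted p = 0.00541). Its peak measured 12170 bp in NT, 2208 bp in NT + TPL and 8148 bp in TAM + TPL.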
